A study of Mus musculus with 49 samples.

Results

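Granzymes, perforin and their granule companions were followed as 10 genes, Gzma, Gzmb, Gzmk, Prf1, Nkg7, Ctsw, Gzmc, Gzmd, Gzme and Gzmf, in 49 mouse tumours. They were chosen by symbol, and all 10 have a row among the 39179 genes of the deposited count table. The first 6 are referred to as the T/NK-wide genes and Gzmc to Gzmf as the Gzmc to Gzmf cluster. The tumours were grown in Balb/c mice from CT26, a colorectal carcinoma line of that strain, and the RNA of each was sequenced once from the 3′ end of transcripts. The question behind the design is whether celecoxib, an inhibitor of the prostaglandin-making enzyme COX-2, changes how tumours respond to anti-PD-1, an antibody that blocks an inhibitory receptor of T cells.

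The combination of anti-PD-1 and celecoxib was given to 16 tumours, anti-PD-1 alone to 17, celecoxib alone to 7 and vehicle, a mixture of DMSO-PEG400 and water, to 9. The dose was 30 mg/kg of celecoxib every day and 200 µg of anti-PD-1 at each of 2 doses. Treatment began on day 7 after injection and lasted 7 days. The tissue label places collection at day 7 of treatment but the extraction protocol at day 4, and which of these holds is unknown. Each tumour is labelled R or NR, terms that the labels do not define: 12 combination tumours are R and 4 NR, 4 anti-PD-1 tumours are R and 13 NR, and all celecoxib and vehicle tumours are NR. The labels do not say that each tumour came from its own animal, so each p-value speaks only of the spread among these samples, which may be technical.

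Cytotoxic T cells and natural killer (NK) cells store granzymes, which are serine proteases, in granules. When the granules fuse with the membrane, perforin opens pores through which granzymes reach the target cell and cut proteins there, and death of the target can follow. Gzma encodes a tryptase-like granzyme, Gzmb the granzyme that cuts after aspartate and activates caspases, and Gzmk a tryptase-like relative of Gzma found in some memory and tissue T cells. Prf1 encodes perforin, Nkg7 a granule membrane protein needed for efficient granule release, and Ctsw a cysteine protease (cathepsin W) of T and NK cells. Gzmc, Gzmd, Gzme and Gzmf are rodent granzymes encoded beside Gzmb and known from strongly activated mouse lymphocytes. Their substrates are less well known.

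On GRCm38, Gzma and Gzmk lie on the minus strand of chromosome 13 (chr13:113093825-113100981 and chr13:113171608-113225908). Gzmb (chr14:56258838-56262260), Gzmc (chr14:56231441-56234656), Gzmf (chr14:56205263-56211417), Gzmd (chr14:56129556-56132608) and Gzme (chr14:56117626-56120625) follow in this order on the minus strand of chromosome 14, with Gzmn and Gzmg between Gzmf and Gzmd. Prf1 is at chr10:61297833-61304680, Nkg7 at chr7:43437073-43438249, both on the plus strand, and Ctsw at chr19:5465043-5468507 on the minus strand. The chromosome 14 genes are close copies, which matters for reads counted near the 3′ end. The coding sequences of Gzmd and Gzme were 94.8% identical, those of Gzmd and Gzmf 84.7%, those of Gzmc and Gzmd 73.5% and those of Gzmb and Gzmd 67.3%. The last 90 coding bases, stop codon included, are shown to make this visible. They come from GENCODE M21 transcripts on GRCm38, and capitals mark bases that differ from Gzmd in an alignment by position.
Gzmb (chr14:56259419-56259508): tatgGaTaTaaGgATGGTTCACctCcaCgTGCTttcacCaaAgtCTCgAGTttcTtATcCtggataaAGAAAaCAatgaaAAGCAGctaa
Gzmc (chr14:56231514-56231603): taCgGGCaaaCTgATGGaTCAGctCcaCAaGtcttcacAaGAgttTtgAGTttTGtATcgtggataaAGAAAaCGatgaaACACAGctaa
Gzmd (chr14:56129675-56129764): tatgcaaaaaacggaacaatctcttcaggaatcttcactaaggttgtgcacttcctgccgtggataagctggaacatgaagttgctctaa
Gzme (chr14:56117726-56117815): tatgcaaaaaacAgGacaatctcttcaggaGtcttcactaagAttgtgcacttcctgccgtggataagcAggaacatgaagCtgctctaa
Gzmf (chr14:56205375-56205464): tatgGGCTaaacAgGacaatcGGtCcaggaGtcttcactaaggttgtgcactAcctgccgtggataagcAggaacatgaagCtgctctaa
Gzme differed from Gzmd at 6 of these 90 bases and Gzmf at 13, against 42 for Gzmc and 44 for Gzmb. Of the 50-base windows in the last 400 transcript bases, 43 of 351 in Gzmd, 22 in Gzme and 32 in Gzmf also occurred in another of the 6 family transcripts compared (Gzmb to Gzmg), and 0 in Gzmb and Gzmc. No 75-base window was shared. How reads with several alignments were counted is not stated, so the split of counts among Gzmd, Gzme and Gzmf is uncertain.

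The region around the transcription start is shown for Gzmb, Gzmc and Gzmd, neighbours whose RNA levels were compared across tumours. The 300-base windows, from 250 bases before the start to 50 after it, are from RefSeq on GRCm38.p6, in which 9 of the 10 genes had an entry (Ctsw is named only). Capitals mark matches to a RUNX motif (ACCACA or TGTGGT), an AP-1 motif (TGANTCA) or a T-box motif (AGGTGTGA or TCACACCT), searched on both strands.
Gzmb (chr14:56262285-56262584): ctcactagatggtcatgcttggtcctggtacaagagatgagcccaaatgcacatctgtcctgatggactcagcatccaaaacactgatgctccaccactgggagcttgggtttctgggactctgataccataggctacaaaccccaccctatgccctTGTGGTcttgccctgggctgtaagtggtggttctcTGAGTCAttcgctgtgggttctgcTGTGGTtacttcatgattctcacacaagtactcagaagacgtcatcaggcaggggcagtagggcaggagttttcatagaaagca
Gzmc (chr14:56234608-56234907): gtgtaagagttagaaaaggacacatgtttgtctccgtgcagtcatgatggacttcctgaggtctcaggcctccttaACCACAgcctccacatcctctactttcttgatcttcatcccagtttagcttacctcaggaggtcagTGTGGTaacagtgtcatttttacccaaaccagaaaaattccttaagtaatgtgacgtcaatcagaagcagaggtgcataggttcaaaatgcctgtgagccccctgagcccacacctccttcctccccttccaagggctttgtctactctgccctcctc
Gzmd (chr14:56132544-56132843): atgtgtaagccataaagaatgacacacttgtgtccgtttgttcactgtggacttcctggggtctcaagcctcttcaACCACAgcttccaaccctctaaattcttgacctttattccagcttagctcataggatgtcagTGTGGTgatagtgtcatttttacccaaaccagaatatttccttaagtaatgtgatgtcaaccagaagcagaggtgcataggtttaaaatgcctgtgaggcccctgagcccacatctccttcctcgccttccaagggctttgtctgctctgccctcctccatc
The RUNX motif occurred at 2 places in each of Gzmb, Gzmc, Gzmd, Gzme and Gzmf, at 1 in Gzma, Prf1 and Nkg7, and at none in Gzmk. It was present in 16.76% of all 32851 promoter windows of this length. The AP-1 motif was present in Gzmb alone among the 9 genes and in 7.81% of all windows, and the T-box motif in Nkg7 alone and in 1.28% of all windows. Such matches describe the letters of these windows and are not evidence of binding.

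Total counts per library ranged from 4251251 to 13671294, with a median of 7670623. Levels are given in CPM, the count scaled to the TMM-adjusted size of its library, and are compared between tumours and not between genes. Of the colorectal epithelium markers, Krt8, Krt18, Krt20 and Lgals4 were counted in all 49 libraries, while Cdx2 was at 0 in 48, Vil1 in 43 and Epcam in 18. Libraries differed in muscle, skin and fat transcripts: 5 combination, 5 anti-PD-1, 2 celecoxib and 2 vehicle libraries exceeded a mean of 3 log2 CPM over the muscle list or 5 over the skin or adipocyte list.

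All 10 genes were detected, and depth separated them. Gzma, Gzmb, Nkg7 and Ctsw were counted in all 49 libraries, with 40774, 10240, 15446 and 5149 counts in total. Prf1, Gzmk and Gzmc were counted in 47 libraries each, with totals of 1117, 564 and 1228. Gzmf had 147 counts in 27 libraries, Gzmd 101 in 23 and Gzme 41 in 15. These last 3 did not pass edgeR's filter on low counts, so 7 of the 10 genes were tested. A library with 0 counts still allows up to 3, equal to 0.21 to 0.68 CPM depending on the library.

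The spread between tumours of the same treatment was wide for every gene. Gzmb, for example, ran from 1.60 to 215 CPM within the combination group (median 23.6), and Gzma from 2.60 to 356 CPM within the anti-PD-1 group (median 57.1). The groups overlapped for all 10 genes.

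**Figure D1:**
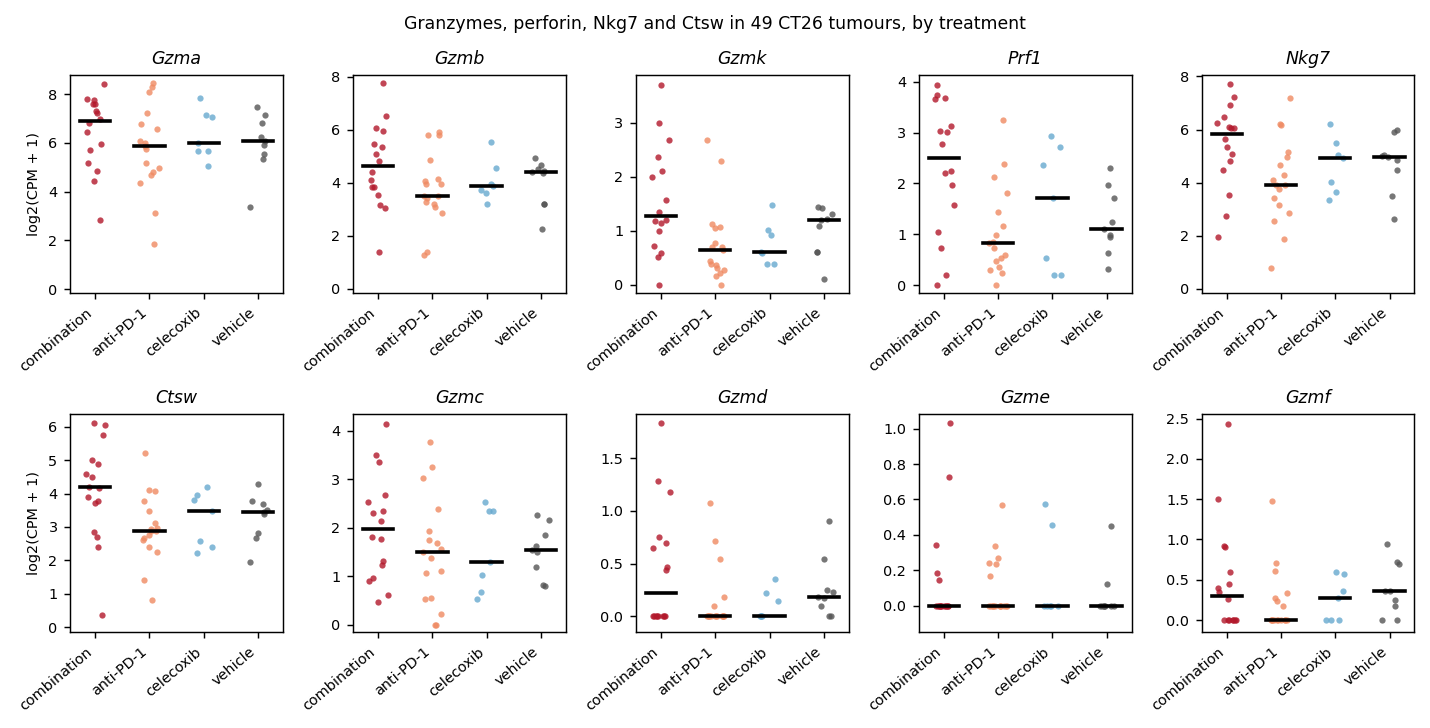
Level of each gene in log2(CPM + 1) in 49 tumours, 1 point a tumour and a bar at the group median, with the treatments side by side. The combination group held the highest tumour for every gene except Gzma, and for each gene the treatments overlapped.

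Perforin gave the largest fitted difference of the 7 when the combination was set against anti-PD-1. Prf1 ranged over 0, 4.80 and 14.4 CPM (lowest, median and highest) in combination tumours, against 0, 0.768 and 8.44 CPM in anti-PD-1 tumours. Its median in the combination group stood above 16 of 17 anti-PD-1 tumours, but combination replicate 6 and anti-PD-1 replicate 14 were both at 0 counts. The fitted log2 change was 1.90 (SE 0.54, 95% interval 0.84 to 2.95), with an adjusted p of 0.0755 from edgeR's quasi-likelihood test over 13726 genes.

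Ctsw, the granule cathepsin, had the same adjusted p. It ranged over 0.290, 17.2 and 67.7 CPM in combination tumours, against 0.743, 6.43 and 36.3 CPM in anti-PD-1 tumours. The lowest of all 49 tumours was combination replicate 15, an R tumour whose library was among those with other tissue. Its muscle list mean was 6.98 log2 CPM and its T cell list mean 0.01 log2 CPM, and their part in its low level was not tested. The log2 change was 1.41 (SE 0.40, 95% interval 0.63 to 2.19, edgeR adjusted p = 0.0755).

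The caspase-activating granzyme, Gzmb, ranged over 1.60, 23.6 and 215 CPM in combination tumours, against 1.41, 10.4 and 58.7 CPM in anti-PD-1 tumours. Combination replicate 13 held the highest value, and the next tumour, combination replicate 16, was at 91.4 CPM. The log2 change of Gzmb was 1.13 (SE 0.45, edgeR adjusted p = 0.182), and 0.67 without combination replicate 13. Gzmk ranged over 0, 1.43 and 12.1 CPM in combination tumours, against 0, 0.559 and 5.41 CPM in anti-PD-1 tumours, on few counts. Nkg7 ranged over 2.90, 57.2 and 211 CPM in combination tumours, against 0.743, 14.1 and 143 CPM in anti-PD-1 tumours. The tumour with the most Gzmk, Nkg7 and Ctsw was the same one, combination replicate 1.

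Gzma and Gzmc gave the smallest differences. Gzma ranged over 6.24, 120 and 338 CPM in combination tumours, against 2.60, 57.1 and 356 CPM in anti-PD-1 tumours, so that both groups covered nearly the same range. Gzmc, the one cluster gene with enough counts for the test, ranged over 0.392, 2.96 and 16.6 CPM in combination tumours, against 0, 1.84 and 12.6 CPM in anti-PD-1 tumours. The log2 change of Gzmc was 0.57 (SE 0.49, 95% interval -0.38 to 1.52, edgeR adjusted p = 0.555). It was 0.26 without combination replicate 13 and 0.92 without anti-PD-1 replicate 17.

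edgeR called 0 of the 7 tested genes between the combination and anti-PD-1, where it called 0.503% of all genes. All 7 fitted changes were positive, from 0.34 to 1.90 with a median of 1.18, against a median of -0.0022 over all genes. At an unadjusted p under 0.05 there were 5 of 7, against 17.2% of all genes. The 7 genes vary together across these tumours, so such counts are not of independent results, here or in the later comparisons. DESeq2 called 2, Ctsw at 1.42 (adjusted p = 0.0336) and Prf1 at 1.88 (adjusted p = 0.0375), where it called 2.16% of all genes, and limma-voom called 0. The count also depended on single tumours: edgeR called Ctsw and Prf1 without combination replicate 3 or without combination replicate 15, Prf1 without anti-PD-1 replicate 1, and Ctsw and Gzmk without anti-PD-1 replicate 2. Without the 14 libraries with other tissue the changes were of similar size, 1.74 for Prf1 and 1.37 for Ctsw, and were not called. For limma-voom, single tumours left out, libraries removed and a covariate added, the share of all genes called is not given, here or later. Counts of called genes in those settings therefore cannot be set against such a share.

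**Figure D2:**
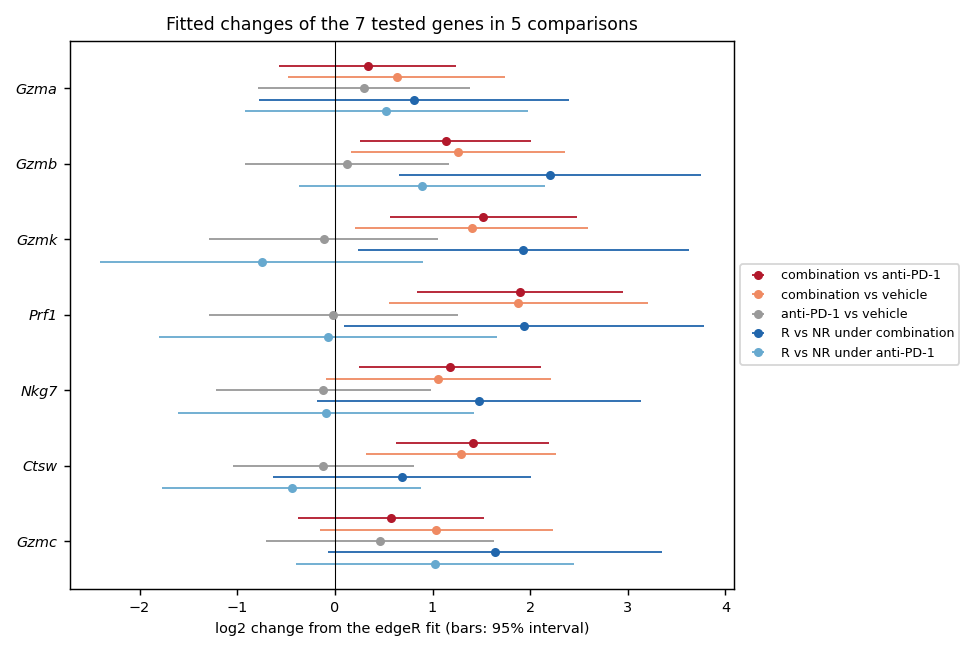
Log2 change from the edgeR fit for the 7 tested genes in 5 comparisons, with bars for the 95% interval. For the combination against anti-PD-1 the bars of Gzmb, Gzmk, Prf1, Nkg7 and Ctsw lie above 0 before adjustment over all genes, and those of Gzma and Gzmc include 0.

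Markers of T cells gave positive values in the same comparison, and so did most genes of other white cell lists. The 2 CD8 T cell markers were both positive (median 1.53), as were 6 of 7 macrophage markers (0.568). Positive too were 7 of 8 mast cell and basophil markers (0.575), 4 of 4 general leukocyte markers (0.334) and 2 of 3 neutrophil markers (0.402). All 10 T cell markers had a positive change for the combination against anti-PD-1 (median log2 change 1.08, 10 with an unadjusted p under 0.05, 0 called by edgeR), and the 6 tested of 7 NK cell markers had a median of 0.74. The summed level of the T cell list ranged over 10.0, 112 and 435 CPM in combination tumours, against 6.07, 45.4 and 225 CPM in anti-PD-1 tumours, and none of its 10 genes was at 0 in either group. Muscle markers were also positive for 17 of 18 genes (median 1.495), and their summed level ranged over 68.6, 127 and 4155 CPM in combination tumours, against 87.01, 132 and 1058 CPM in anti-PD-1 tumours. The values without the libraries rich in such tissue are those given above. In RNA of whole tumours, fewer cells of a type and less RNA per cell cannot be told apart. With the T cell list mean as a covariate, the log2 changes between the combination and anti-PD-1 were 0.53 for Prf1 (SE 0.40), 0.52 for Gzmk (SE 0.41) and 0.20 for Ctsw (SE 0.22). The values were -0.06 for Nkg7 (SE 0.15), -0.24 for Gzmb (SE 0.29), -0.33 for Gzmc (SE 0.36) and -0.62 for Gzma (SE 0.25). None was called, and 4 of 7 genes were negative with the covariate.

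Set against vehicle, the combination gave positive values for all 7 tested genes, and edgeR called 0 of them, against 0.0729% of all genes. This comparison shares the combination tumours with the previous one. Prf1 ranged over 0.250, 1.16 and 3.92 CPM in the vehicle tumours, and its log2 change with the combination was 1.88 (SE 0.68, adjusted p = 0.195), the smallest p of the 7. Gzmb ranged over 3.75, 20.1 and 29.4 CPM with vehicle, against 1.60, 23.6 and 215 CPM with the combination. The medians were thus near each other, while its fitted change, which compares group means, was 1.26 (SE 0.56, adjusted p = 0.272). Gzmc ranged over 0.750, 1.93 and 3.77 CPM with vehicle, and its change was 1.04 (SE 0.61, adjusted p = 0.402). Of the 7 genes, 4 had an unadjusted p under 0.05, against 15.4% of all genes. Of the 7, 0 were called by DESeq2, against 0.488% of all genes, and limma-voom called 0. With the T cell list mean as a covariate the change of Gzmb was -0.011 (SE 0.30) and that of Prf1 0.75 (SE 0.45), while Gzma and Nkg7 were also negative. Without combination replicate 13 the change of Gzmb was 0.77.

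Marker lists of other cells and tissues were read in the same comparison with vehicle. The T cell list was positive for 10 of 10 genes (median 0.997, 3 with an unadjusted p under 0.05), with sums of 10.0, 112 and 435 CPM in combination tumours, against 19.3, 67.3 and 137 CPM in vehicle tumours. The muscle list was positive for 17 of 18 genes (median 3.43, 17 with an unadjusted p under 0.05), with sums of 68.6, 127 and 4155 CPM in combination tumours, against 72.0, 121 and 283 CPM in vehicle tumours. The adipocyte list was positive for 2 of 8 genes (median -1.26, 4 with an unadjusted p under 0.05), and edgeR called 0 genes of these 3 lists. Without the libraries with other tissue the changes were 2.02 for Prf1 (SE 0.77), 0.78 for Gzmb (SE 0.56) and 0.83 for Gzmc (SE 0.63).

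Anti-PD-1 alone stood close to vehicle in its fitted values, which compare group means, while its median levels were lower. Medians were 10.4 CPM with anti-PD-1 and 20.1 CPM with vehicle for Gzmb, 0.768 and 1.16 for Prf1, and 1.84 and 1.93 for Gzmc. They were 57.1 and 66.75 CPM for Gzma, 0.559 and 1.31 for Gzmk, 14.1 and 30.2 for Nkg7, and 6.43 and 9.90 for Ctsw. edgeR called 0 of 7, against 0.0874% of all genes, with 0 of 7 at an unadjusted p under 0.05, against 3.48% of all genes. The log2 change was 0.12 for Gzmb (95% interval -0.92 to 1.17), -0.02 for Prf1 (-1.29 to 1.26) and 0.47 for Gzmc (-0.70 to 1.63). Gzma, with the smallest p of the T/NK-wide genes, had a log2 change of 0.30 (-0.79 to 1.38). Each interval includes a change of 1 log2 unit, so a difference of that size is within the error. Gzmb and Prf1 also turned in sign with single tumours left out, with ranges of -0.079 to 0.258 and -0.439 to 0.235, and Gzmc was at 0.098 without anti-PD-1 replicate 17. DESeq2 called 0 of 7, against 0.16% of all genes. limma-voom also called 0, and gave values of the opposite sign for Gzmb and Gzmc (-0.24 and -0.48). The muscle list had a median of 1.83 and the adipocyte list one of -1.29 in this comparison, and the T cell list one of -0.20.

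Celecoxib alone was set against vehicle with 7 and 9 tumours. Prf1 was at 0.150, 2.28 and 6.61 CPM (lowest, median and highest) in celecoxib tumours, a log2 change of 0.87 (SE 0.77, 95% interval -0.63 to 2.38). Celecoxib replicates 3, 4 and 7 were at 4.15 CPM or above, higher than every vehicle tumour, while replicates 5 and 6 were below the lowest vehicle tumour. Gzmb was at 8.21, 13.5 and 45.4 CPM in celecoxib tumours, a log2 change of 0.08 (SE 0.65), and that of Gzmc was 0.20 (SE 0.72). Without celecoxib replicate 4 these were -0.34 and -0.072, and Prf1 was at 0.52 without celecoxib replicate 3. Muscle markers had a median of 4.89 (17 of 18 with an unadjusted p under 0.05), adipocyte markers one of -3.65 and T cell markers one of 0.05. Without the libraries with other tissue Prf1 was at 0.52 (SE 0.89). edgeR called 0 of 7, as it did of all genes (0%), with 0 of 7 at an unadjusted p under 0.05, against 2.29% of all genes. Of the 7, 0 were called by DESeq2, against 0.051% of all genes, and limma-voom called 0.

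Between the combination and celecoxib alone, edgeR called 0 of 7, against 0.0364% of all genes, with 2 of 7 at an unadjusted p under 0.05, against 4.92% of all genes. Gzmk had the smallest p. It ranged over 0, 1.43 and 12.1 CPM in the combination tumours, against 0.299, 0.518 and 1.79 CPM in celecoxib tumours, with a log2 change of 1.87 (SE 0.70, adjusted p = 0.882). The changes were 1.18 for Gzmb (SE 0.61), 1.01 for Prf1 (SE 0.70) and 0.83 for Gzmc (SE 0.66). The effect of celecoxib with anti-PD-1 minus that without it was 1.99 for Gzmk (SE 0.91), 1.05 for Gzmb (SE 0.79), 1.02 for Prf1 (SE 0.94) and 0.37 for Gzmc (SE 0.88). With the T cell list mean as a covariate Gzmb, Prf1 and Gzmc turned negative in both, at -0.17, -0.33 and -0.15 against celecoxib and at -0.40, -0.55 and -0.56 for the interaction. Without combination replicate 13 Gzmb was at 0.70 against celecoxib and 0.59 for the interaction, and Gzmc was at 0.495 and 0.043. In the interaction the T cell list had a median of 1.14, the muscle list one of -3.29 and the adipocyte list one of 3.13. Against celecoxib the medians of these lists were 0.93, -1.50 and 1.21. In this interaction edgeR called 0 of 7 and 0% of all genes, with Gzmk alone at an unadjusted p under 0.05, against 3.01% of all genes. DESeq2 called 0 of 7 in both comparisons, against 0.0146% of all genes in each, and limma-voom called 0.

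Within the combination group the R tumours reached higher levels of Gzmb than the NR tumours, without passing the test. Gzmb ranged over 1.60, 36.4 and 215 CPM in the 12 R tumours, against 10.7, 13.1, 7.29 and 13.5 CPM in the 4 NR tumours. Of the 12 R tumours 10 stood above all 4 NR tumours, and the remaining replicates 10 and 15 were at 7.88 and 1.60 CPM. Replicate 15 was the library rich in muscle transcripts named above. The log2 change of R against NR was 2.21 (SE 0.79, 95% interval 0.66 to 3.75, edgeR adjusted p = 0.431).

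Prf1 followed a similar order. It ranged over 0.145, 7.11 and 14.4 CPM in combination R tumours, against 0.653, 2.92, 0 and 3.63 CPM in combination NR tumours, a log2 change of 1.94 (SE 0.94, adjusted p = 0.541). R replicates 3, 10 and 15 were within the range of the NR tumours and the other 9 above it. Gzmc ranged over 0.537, 4.00 and 16.6 CPM in R tumours, against 0.392, 3.40, 1.49 and 1.35 CPM in NR tumours, a log2 change of 1.64 (SE 0.87, adjusted p = 0.559). edgeR called 0 of 7 and 0% of all genes for this comparison, and 3 of 7 had an unadjusted p under 0.05, against 9.11% of all genes. DESeq2 called 0 of 7, against 0.119% of all genes, and limma-voom called 0. The 10 T cell markers had a median log2 change of 1.30 between the same R and NR tumours, all positive and 0 called. Muscle markers stood higher still, with all 18 positive (median 3.20), 0 called and a summed level of 79.7, 178 and 4155 CPM in R tumours, against 68.6, 106 and 340 CPM in NR tumours. With the T cell list mean as a covariate the change of Gzmb was 0.79 (SE 0.46). Without the libraries with other tissue it was 1.72 (SE 0.81), that of Prf1 1.82 (SE 1.07) and that of Gzmc 1.03 (SE 0.88), again with 0 called. With the covariate Ctsw, Gzma and Nkg7 turned negative, at -0.71, -0.42 and -0.06.

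The 4 R tumours of the anti-PD-1 group split into a low and a high pair. Gzmb was at 1.41, 1.61, 58.7 and 54.6 CPM in R replicates 12, 14, 15 and 17, against 6.33, 10.4 and 54.6 CPM (lowest, median and highest) in the 13 NR tumours. Replicates 12 and 14 were below every NR tumour, replicate 15 was above every one, and replicate 17 stood level with the highest, NR replicate 2. Gzma gave a like split, at 7.78, 2.60, 149 and 356 CPM in the R tumours, against 19.4, 57.1 and 310 CPM in the NR tumours. Its R replicates 12 and 14 were again below every NR tumour, and R replicate 17 was above every one. Prf1 was at 0.177, 0, 1.24 and 4.21 CPM in the R tumours, against 0.226, 0.768 and 8.44 CPM in the NR tumours. Gzmc was at 1.59, 0, 4.25 and 12.6 CPM in the R tumours, against 0, 1.84 and 8.58 CPM in the NR tumours. For Prf1 and Gzmc too, replicates 15 and 17 stood above the NR median and replicates 12 and 14 below it. The T cell list mean of the same R tumours was 1.25, -0.59, 2.62 and 3.53 log2 CPM, and the muscle list mean was 4.10 and 4.08 log2 CPM in replicates 14 and 15, against 0.03 and 0.43 in replicates 12 and 17. The part of T cell or muscle content in the granzyme levels was not tested.

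The fitted change of R against NR with anti-PD-1 was 0.89 for Gzmb (SE 0.64, adjusted p = 0.891), -0.07 for Prf1 (SE 0.88, adjusted p = 0.998) and 1.03 for Gzmc (SE 0.72, adjusted p = 0.885). edgeR called 0 of 7 and 0% of all genes, with 0 of 7 at an unadjusted p under 0.05, against 6.48% of all genes, and DESeq2 (0% of all genes) and limma-voom called 0. Single tumours weighed on these values: Gzmb was at 0.31 without R replicate 15 and 0.41 without R replicate 17, Gzmc was at -0.21 without R replicate 17, and Prf1 was positive without NR replicate 1 (0.52), NR replicate 11 (0.071) or R replicates 12, 14 or 15 (0.26, 0.31 and 0.013). The R minus NR effect in the combination minus that with anti-PD-1 was 1.32 for Gzmb (SE 1.01), 2.01 for Prf1 (SE 1.28), 0.61 for Gzmc (SE 1.13) and 2.68 for Gzmk (SE 1.21, adjusted p = 0.999), the smallest p. Gzmb was at 0.83 without combination replicate 13, and Prf1 at 3.50 and Gzmc at 1.86 without anti-PD-1 replicate 17. edgeR called 0 of 7 and 0% of all genes for this difference, with Gzmk alone at an unadjusted p under 0.05, against 2.31% of all genes. Of the 7, 0 were called by DESeq2, against 0.014% of all genes, and limma-voom called 0.

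**Figure D3:**
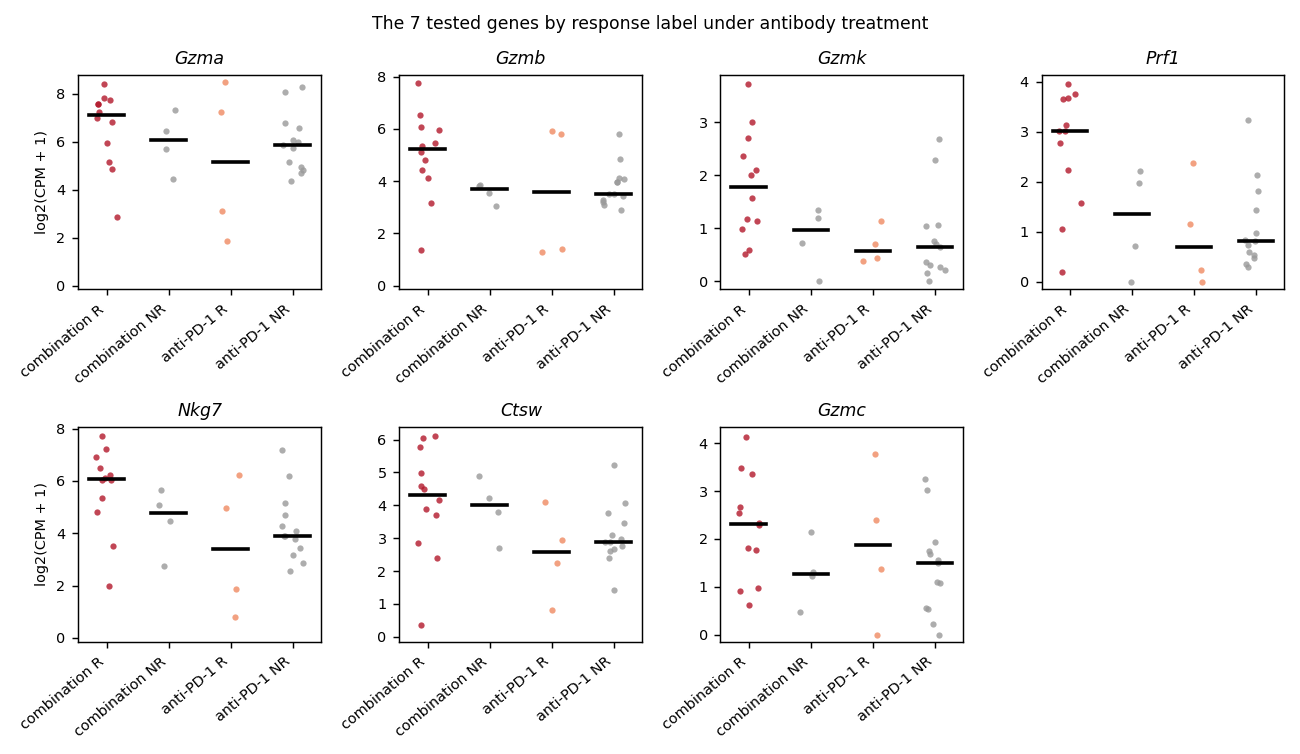
Level in log2(CPM + 1) of the 7 tested genes in R and NR tumours of the combination and anti-PD-1 groups, 1 point a tumour and a bar at the median. For Gzmb 10 of 12 combination R tumours lie above the 4 combination NR tumours, and the 4 anti-PD-1 R tumours form a low and a high pair.

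Averaged over both antibody treatments, R against NR gave 1.55 for Gzmb (SE 0.50, 95% interval 0.57 to 2.53, edgeR adjusted p = 0.15) and 1.33 for Gzmc (SE 0.57, adjusted p = 0.277). Prf1 was at 0.93 (SE 0.62, adjusted p = 0.526). Without anti-PD-1 replicate 17 Prf1 was at 0.19 and Gzmc at 0.72. All 7 values were positive with a median of 0.69, against the 10 T cell markers at 0.58 and all genes at 0.02. edgeR called 0 of 7, against 0.0491% of all genes, with Gzmb and Gzmc at an unadjusted p under 0.05, against 14% of all genes. DESeq2 called 0 of 7, against 1.11% of all genes, and limma-voom called 0. Muscle markers were positive for all 18 genes (median 1.79), and without the libraries with other tissue Gzmb was at 1.27 (SE 0.55) and Gzmc at 1.26 (SE 0.61). With the T cell list mean as a covariate Gzmb was at 0.68 (SE 0.31) and Gzmc at 0.68 (SE 0.42), but Ctsw (-0.58, SE 0.23), Gzma (-0.22, SE 0.29) and Nkg7 (-0.17, SE 0.17) turned negative, with 0 called. Ctsw and Gzma were negative with limma-voom as well, at -0.27 and -0.083.

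Among R tumours, the combination minus anti-PD-1 difference was 2.41 for Gzmk (SE 0.89, adjusted p = 0.658), 2.24 for Prf1 (SE 0.95), 0.82 for Gzmb (SE 0.71) and 0.13 for Gzmc (SE 0.76). edgeR called 0 of 7 and 0% of all genes, with 3 of 7 at an unadjusted p under 0.05, against 7.38% of all genes. The sign of Gzmc turned without anti-PD-1 replicate 12 (-0.14), anti-PD-1 replicate 14 (-0.28) or combination replicate 13 (-0.19). Gzmb ranged from 0.34 without combination replicate 13 to 1.40 without anti-PD-1 replicate 15, and Prf1 was at 3.74 without anti-PD-1 replicate 17. The T cell list had a median of 1.39 and the muscle list one of 1.49 between these R tumours. Among NR tumours the same contrast was 0.23 for Prf1 (SE 0.86), -0.49 for Gzmb (SE 0.71) and -0.48 for Gzmc (SE 0.83). Ctsw, with the smallest p, had a log2 change of 0.78 (SE 0.62). Prf1 was negative without combination replicate 5 or combination replicate 12, at its lowest -0.40 without the last. edgeR called 0 of 7, against 0.0281% of all genes, with 0 of 7 at an unadjusted p under 0.05, against 5.73% of all genes. Combination R tumours against vehicle gave 2.17 for Prf1 (SE 0.69, adjusted p = 0.133), 1.57 for Gzmb (SE 0.54, adjusted p = 0.148) and 1.30 for Gzmc (SE 0.61, adjusted p = 0.273). edgeR called 0 of 7 there, against 0.0842% of all genes, with 6 of 7 at an unadjusted p under 0.05, against 16.7% of all genes. In that comparison the T cell list was positive for 10 of 10 genes (median 1.22, 9 with an unadjusted p under 0.05) and the muscle list for 17 of 18 (median 3.79, 17 with an unadjusted p under 0.05), and without the libraries with other tissue Prf1 was at 2.34 (SE 0.80) and Gzmb at 1.08 (SE 0.57). DESeq2 called 0 of 7 in each of these 3 comparisons, against 0%, 0.0912% and 1.34% of all genes, and limma-voom called 0.

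Gzmd, Gzme and Gzmf were close to the limit of detection outside a few tumours. Combination replicate 13, an R tumour, held the highest level of each, at 2.55 CPM for Gzmd, 1.05 CPM for Gzme and 4.41 CPM for Gzmf, from 22, 9 and 38 counts. It also held the highest Gzmb and Gzmc, at 215 and 16.6 CPM, while its Prf1 was at 3.72 CPM, below the combination median, and its Ctsw at 13.8 CPM. Combination replicate 7, also R, was second for the 3 genes, at 1.44, 0.653 and 1.83 CPM. Both libraries were among the 14 with other tissue.

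Summed over Gzmd, Gzme and Gzmf, counts were present in 11 of 16 combination tumours, 9 of 17 anti-PD-1 tumours, 4 of 7 celecoxib tumours and 7 of 9 vehicle tumours. The sums ranged over 0, 0.642 and 8.01 CPM with the combination, 0, 0.131 and 2.90 CPM with anti-PD-1, 0, 0.311 and 1.14 CPM with celecoxib, and 0, 0.383 and 1.74 CPM with vehicle. By response label, 10 of 12 combination R tumours had counts of the 3 genes, against 1 of 4 combination NR tumours, and 2 of 4 anti-PD-1 R tumours did, against 7 of 13 anti-PD-1 NR tumours. These shares carry no test, since depth differs between libraries. Of the other granzymes, Gzmg had 18 counts in 10 libraries and Gzmn 4 in 2. Gzmm, which encodes granzyme M and is best known from NK cells, had 390 counts in 48 libraries and a log2 change of 0.24 (SE 0.34) between the combination and anti-PD-1.

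Across the 49 tumours the granzyme levels varied together with those of lymphocyte markers. No such relation was computed for the lists of other white cells, and no share over all genes is given. The gene outside the 10 most like the T/NK-wide genes was Mpeg1 (r = 0.96), which encodes a macrophage protein. The relations are therefore not shown to be particular to lymphocytes. In 65 relations, 10 genes with one another and with the means of the T cell and NK cell lists, 64 had a permutation p with an adjusted value under 0.05. A p of 1e-05, adjusted to 1.91e-05, is the smallest that 100000 resamples can give. All values share library and depth within a tumour, so the relations describe these samples together. Nkg7 followed the T cell list most closely (Pearson r = 0.96, Spearman rho = 0.97, adjusted permutation p = 1.91e-05), with r = 0.95 without the 2 farthest tumours and 0.96, 0.97, 0.93 and 0.98 within the combination, anti-PD-1, celecoxib and vehicle groups. Gzma followed the NK cell list (r = 0.96, rho = 0.94, adjusted permutation p = 1.91e-05), with r = 0.94 without the 2 farthest tumours and from 0.95 to 0.98 within treatments. Its r with the T cell list was 0.85. The difference between these coefficients was not tested.

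Combination replicate 14, an R tumour, had low Gzma beside high levels of other granule genes. Its Gzma was at 28.3 CPM, among the lowest values of the group, while Gzmb was at 60.8, Prf1 at 11.6, Gzmk at 7.03 and Nkg7 at 64.9 CPM. Its T cell list mean was 4.24 log2 CPM, among the highest, and its muscle list mean was 6.59 log2 CPM. Ncr1, a gene of the NK cell list, was at 6.48 CPM in this tumour, also among the lowest values of the group. The part of NK, T cell or muscle content in its low Gzma was not tested. Ctsw and Prf1 gave r = 0.91 and 0.85 with the T cell list, and 0.85 and 0.78 with the NK cell list. Gzmb gave 0.86 with each list.

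Gzmk was the least tied to the other T/NK-wide genes. Its r with Gzma was 0.49 (rho = 0.53, adjusted permutation p = 0.000552) and with the T cell list 0.68. In the 9 vehicle tumours its r with the T cell list was 0.008 and with Gzma -0.14, on 75 counts in all. The lowest r among the 15 pairs of T/NK-wide genes was that of Gzma with Gzmk, and the highest, 0.92, that of Gzma with Nkg7.

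**Figure D4:**
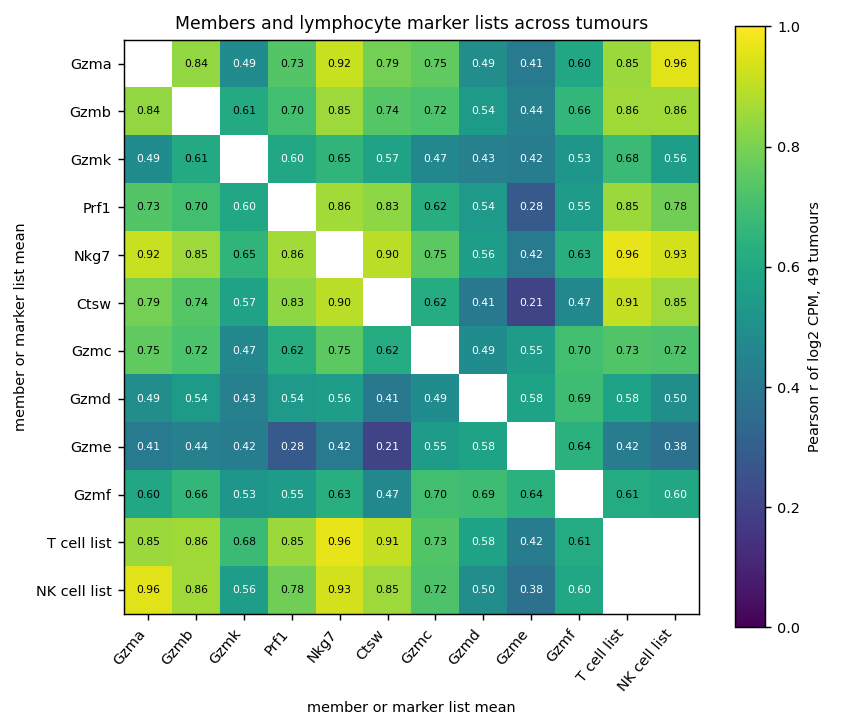
Pearson r of log2 CPM across 49 tumours between the 10 genes and the means of the T cell and NK cell lists. The T/NK-wide genes give r from 0.49 to 0.92 with one another, and Gzme gives the lowest values, down to 0.21 with Ctsw.

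Gzmc was tied to the T cell list at r = 0.73 (rho = 0.74, adjusted permutation p = 1.91e-05), with r from 0.66 to 0.78 within treatments. With the T/NK-wide genes its r ranged from 0.47 for Gzmk to 0.75 for Gzma. Gzmd and Gzmf gave r = 0.69 with each other and Gzmd and Gzme r = 0.58. The second relation rested on few tumours: r was 0.36 without the 2 farthest and 0.24 without the libraries with other tissue (adjusted permutation p = 0.165). Ctsw and Gzme, at r = 0.21 (rho = 0.26, adjusted permutation p = 0.153), did not pass the limit.

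**Figure D5:**
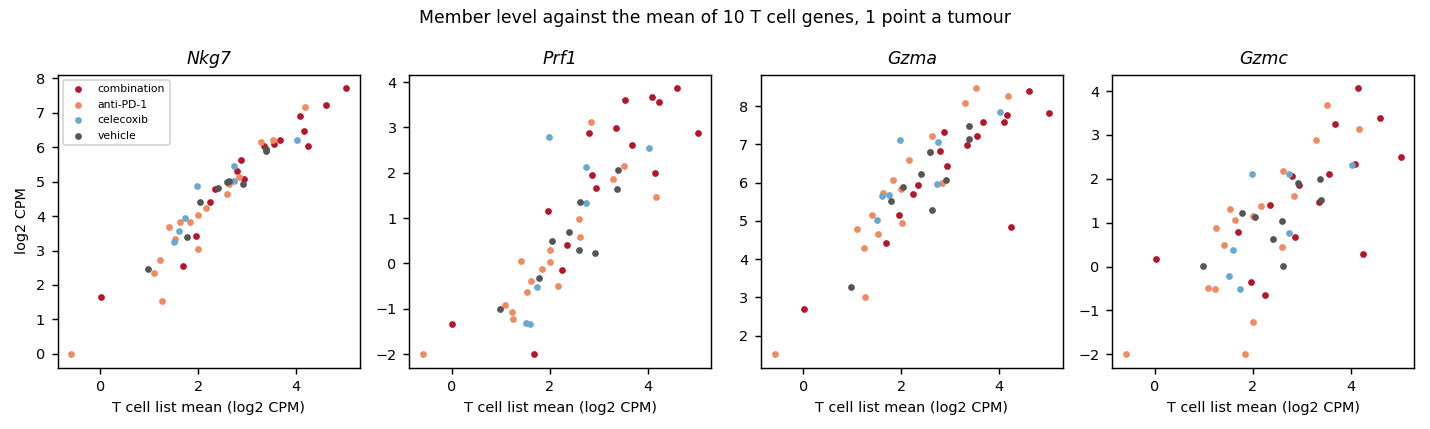
Level of Nkg7, Prf1, Gzma and Gzmc (log2 CPM, vertical) against the mean of 10 T cell genes (log2 CPM, horizontal), 1 point a tumour, coloured by treatment. Nkg7 lies nearly on a line (r = 0.96), Prf1, Gzma and Gzmc scatter more (r = 0.85, 0.85 and 0.73), and the point low in Gzma at a T cell mean of 4.24 is combination replicate 14.

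The genes most like each class were sought among 11294 others by Pearson r across 49 tumours with the mean z-score of the class. For the T/NK-wide genes they were Mpeg1 (r = 0.96), which encodes the macrophage pore-forming protein perforin-2, Itgal (0.96), the LFA-1 integrin chain, Il2rb (0.95), the receptor chain for interleukins 2 and 15, Cd52 (0.95), a lymphocyte surface glycoprotein, Klrd1 (0.95), the NK receptor CD94, and Rac2 (0.95), a GTPase of blood cells. For Gzmc to Gzmf they were Evl (0.82), an actin regulator, Smpdl3a (0.80), a phosphodiesterase, AW112010 (0.78), Ifng (0.78), interferon gamma, Cytip (0.78), a cytohesin partner, and Blvrb (0.77), a biliverdin reductase. These values rank likeness in these libraries and carry no test.

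Genes that act on granzymes were described for the combination against anti-PD-1, from lists chosen by role. The lists include Ctsl, Lamp1 and Serpinb6a, with 350283, 316473 and 153242 counts in total. Which cells of the tumour made these RNAs was not tested. For loading and activation of granules, 7 of 9 genes were positive (median log2 change 0.24). An unadjusted p under 0.05 was reached by 2 of the 9, near the 17.2% of all genes. The smallest p was that of Srgn, the proteoglycan that holds granzymes in granules, with a log2 change of 0.55 (SE 0.18, adjusted p = 0.112). For granule release, 7 of 7 tested of 8 genes were positive (median 0.59), and 6 of the 7 had an unadjusted p under 0.05, against 17.2% of all genes. Stxbp2, the Munc18-2 protein required for granule fusion, was at 0.82 (SE 0.24, adjusted p = 0.0771). Of the inhibitors, 5 of 6 were positive (median 0.22, 0 with an unadjusted p under 0.05). Serpina3g, a serpin of activated T cells, had the smallest p, with a log2 change of 0.99 (SE 0.51, adjusted p = 0.302). edgeR called 0 genes of these 3 lists.

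Other death ligands, cytotoxic transcription factors and inducing cytokines gave mostly positive values too. All 5 other death ligands and cytokines were positive (median 1.002), with Lta, lymphotoxin alpha, at 1.46 (SE 0.46, adjusted p = 0.0991). Of 11 transcription factors of cytotoxic cells 10 were tested and 9 positive (median 0.47), and Id2, which sustains effector and NK cells, was nearest the limit at 0.75 (SE 0.19, adjusted p = 0.0503). All 11 tested of 13 inducing cytokines and receptors were positive (median 0.63), with Il18r1, an interleukin 18 receptor chain, at 1.12 (SE 0.37, adjusted p = 0.11). edgeR called 0 genes of these lists either. Lpl, lipoprotein lipase, of the adipocyte list, rose (1.12, SE 0.27, adjusted p = 0.0372), and was the single gene called among all lists in this comparison. The adipocyte list as a whole went the other way, with 2 of 8 genes positive and 6 negative (median -0.442).

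For R against NR averaged over both antibody treatments, the same lists gave 9 of 9 loading genes positive (median 0.49), with Srgn at 0.61 (SE 0.19, adjusted p = 0.136), and 7 of 7 release genes positive (median 0.32), with Unc13d, the priming factor Munc13-4, at 0.61 (SE 0.25, adjusted p = 0.248). The 5 death ligands and cytokines had a median of 1.12, with Tnf at 1.13 (SE 0.42, adjusted p = 0.204), and Id2 was at 0.83 (SE 0.19, adjusted p = 0.0714). edgeR called 0 genes of these 4 lists. The NK cell list had a median of 0.38 over 6 tested genes, and mast cell and basophil markers, whose chymases are neighbours of the granzymes on chromosome 14, a median of -0.07 over 8.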

How the data were processed

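Tumour RNA was read as 3′-end libraries (QuantSeq FWD), per the labels' protocols. The deposited table gives 1 whole-number count for each gene and tumour, made by the authors with bcl2fastq, STAR and featureCounts, and limma is also named, with the builds mm10 and GRCm38, per the submitters' processing notes. No version, annotation release, strand setting or rule for multimapping reads is stated in those notes. A deposited second table of log2 CPM was not used. Symbols matched 37607 of 39179 genes.

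Counts were tested with edgeR 4.0.16 in R 4.3.3 (TMM, filterByExpr, robust quasi-likelihood fits, Benjamini-Hochberg adjustment over all tested genes, limit 0.05), in 1 fit of the 4 treatments (13726 genes) and 1 fit of 6 treatment and response groups (14247 genes). SE is the size of the log2 change over the square root of F, and 95% intervals are normal intervals from it. Floors of 3 counts cover counting error only. List means and correlations used log2 CPM with a prior count of 2, with 100000 permutations in Python 3.11.15 (scipy 1.17.1, numpy 2.4.6), two-sided.

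Groups come from the labels, and replicate numbers only name tumours in the order of the labels. Fold changes are named for called genes, for Gzmb, Prf1 and Gzmc, and for the gene with the smallest p of each class or list. Tumours singled out, motifs and sequence windows were chosen after values were seen. The genes and lists were chosen with earlier results of these data known. Alternatives were DESeq2 1.42.0, limma-voom (limma 3.58.1), RLE factors, no filter, the compared groups alone, the T cell list mean as a covariate, removal of libraries with other tissue, and each library left out in turn.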

Additional observations from a re-analysis of the deposited data

Results flagged for a closer look

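Each of the 10 genes was examined in the celecoxib, vehicle, anti-PD-1 R and combination NR tumours, which gave 40 sets of 4 to 9 tumours. The larger combination R and anti-PD-1 NR groups were not examined. In 6 of the 40 sets, 1 tumour stood far from the others. The rate that chance gives, about 1 in 20 sets, does not apply to any of the 6, since most tumours of each set were at 0. In 5 of them the other 3 tumours were at 0, and any count then sets a tumour apart. For Gzme with vehicle, 7 of 9 tumours were at 0. Values are in log2(CPM + 1). Each of the 6 was a gene of the Gzmc to Gzmf cluster on at most 6 counts. Combination replicate 12 was the single one of 4 NR tumours with counts of Gzmd (0.697, 6 counts), Gzme (0.142, 1 count) and Gzmf (0.602, 5 counts). Anti-PD-1 replicate 17 was the single one of 4 R tumours with counts of Gzmd (0.543, 5 counts) and Gzme (0.242, 2 counts). Vehicle replicate 7 had Gzme at 0.45 (4 counts), with the next vehicle tumour at 0.121.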

How the results depend on the processing

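The number of the 10 genes called stayed at 0 in 12 of 13 comparisons under the alternatives run. Between the combination and anti-PD-1 it was 2 with DESeq2, against 2.16% of all genes. It ranged from 0 to 2 when 1 library was left out, where no share of all genes is given. Gzmd, Gzme and Gzmf were fitted in the fit without a filter on low counts and in none of its comparisons called. Over the 7 tested genes in 13 comparisons, 91 values and 0 of them called, the sign turned for 36 with the T cell list mean as a covariate, 13 with limma-voom, 13 without libraries with other tissue, 1 of 79 with the compared groups alone, and 0 with DESeq2, RLE normalization or no filter. The values that follow cover the genes followed through each comparison. With the covariate these were Gzmb at -0.011 for combination against vehicle, Gzmb at -0.24 and Gzmc at -0.33 for combination against anti-PD-1, and Gzmb at -0.17, Prf1 at -0.33 and Gzmc at -0.15 for combination against celecoxib. Likewise Gzmb was at -0.40, Prf1 at -0.55 and Gzmc at -0.56 for the interaction, Prf1 at 0.22 for anti-PD-1 against vehicle, and Gzmc at -0.29 for the difference of R minus NR effects. Gzmb was at -0.41 and Gzmc at -0.77 between R tumours, and Prf1 at -0.12 between NR tumours. With limma-voom, anti-PD-1 against vehicle gave Gzmb -0.24, Gzmc -0.48 and Gzma -0.22, R against NR with anti-PD-1 gave Gzmb -0.11, and the NR tumours gave Gzmc 0.042. Without libraries with other tissue, Gzmc was at -0.23 for celecoxib against vehicle, Prf1 at 0.28 for anti-PD-1 against vehicle and 0.39 for R against NR with anti-PD-1, and Gzmc at -0.45 for the difference of R minus NR effects and -0.79 between R tumours. The covariate takes out what moves with T cell markers, which were measured in the same libraries as the genes. The cause of the turned signs was not tested. Leaving out 1 library moved anti-PD-1 against vehicle from -0.079 to 0.258 (Gzmb) and -0.439 to 0.235 (Prf1), and celecoxib against vehicle from -0.34 to 0.213 (Gzmb, lowest without celecoxib replicate 4) and -0.072 to 0.378 (Gzmc). It moved R against NR with anti-PD-1 from -0.21 to 1.43 (Gzmc) and -1.56 to 0.52 (Prf1), Gzmc between R tumours from -0.28 to 1.37, and Prf1 between NR tumours from -0.40 to 0.82. Of the 65 relations, 64 passed the limit, 57 without libraries with other tissue and 63 with deviations from treatment means. Low counts limit Gzmd, Gzme and Gzmf most. No paired analysis was possible because replicate numbers were given in the order of the labels within a treatment and the labels pair no tumours.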
